A study of Rattus norvegicus with 9 samples.

Results

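Transcription factors of the mesoderm and stroma around the early kidney ducts were followed in 3 tissues taken at embryonic day 13 from Sprague-Dawley rats. The set holds 10 genes, Wt1, Osr2, Tcf21, Nr2f1, Nr2f2, Alx1, Meis1, Meis2, Tbx18 and Meox1. Every probe set whose single gene symbol was 1 of these names was taken, which gave 13 of the 31099 probe sets on the array. Wt1 has 2 probe sets, Nr2f2 has 3 and the other genes have 1 each. All 13 passed the filter on weak signals and were among the 20334 probe sets tested. Expression was measured with 1 single-colour array per tissue pool, in 3 tissues with 3 arrays each. The ureteric bud (UB) is the epithelial outgrowth that enters the kidney mesenchyme and branches, and each UB array holds about 100 buds freed by brief trypsin digestion. The Wolffian duct (WD) is the tube from which the bud grows, and each WD array holds about 100 ducts taken without digestion. The third tissue (WD+IM) is the duct dissected together with its adhering mesoderm, with about 50 pieces per array. No genetic change is named for any group. Only the UB was digested, so what digestion does and what the tissue is cannot be told apart.

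These factors were grouped as factors of cells outside the duct epithelium, but several gave clear signal in the UB. There the mean rank percentile over the array was 90.9 for Nr2f2 (1389554_at), 75.7 for Meis2 and 73.1 for Meis1. It was lowest for Osr2, at 23.8. The urogenital ridge forms from intermediate mesoderm and the coelomic lining that covers it, and its mesenchyme later divides into nephron progenitors, stroma and the coat of the ureter. Zinc finger, basic helix-loop-helix, nuclear receptor, homeodomain and T-box factors act in these lineages, and several of them are needed for kidney formation. A signal on such an array is a mean over all cells of the piece, so fewer cells of a type and less RNA per cell cannot be told apart.

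Marker lists of several cell types were set beside the labels. Duct epithelial markers, 9 measured of 10 listed, summed to 172592 to 183321 intensity units on the UB arrays, 160901 to 174235 in the WD and 41855 to 65194 in the WD+IM. Mesenchyme markers, 12 of 12 measured, summed to 17661 to 23904, 122474 to 164824 and 283836 to 332320. The bare duct carried signal of mesenchymal genes, at levels between the other tissues. Endothelial markers, 11 of 12, summed to 3352 to 4440, 5467 to 6481 and 46653 to 46754, and red cell markers, 8 of 10, to 9298 to 32012, 182680 to 261168 and 161754 to 235341. Coelomic lining markers, 7 of 8, summed to 7240 to 10417, 101413 to 113857 and 110717 to 131004, and smooth muscle markers, 6 of 6, to 2973 to 3337, 7535 to 8608 and 22509 to 28383. Aldh1a2 made up most of the coelomic sum in the WD and WD+IM, with means of 62561 and 81841. Msln of that list was lower in the WD+IM (1868) than in the WD (7776; -2.07 ± 0.23, limma adjusted p = 1.68e-04). The other 4 tested were not called in that comparison. No marker of any list was at 0 on any array. The arrays also fell into 2 classes by their spiked-in controls. The bioC signal over that of bioB lay between 2.87 and 2.99 for the UB, was 2.93 for WD+IM replicate 3, and lay between 1.02 and 1.23 for the remaining 5 arrays. Beta-actin signal at the 3′ end over that at the 5′ end was 4.87, 3.11 and 2.19 for WD replicates 1, 2 and 3. It was 2.03, 2.30 and 1.48 in the UB and 1.47, 1.80 and 1.92 in the WD+IM. Every WD array lay above every WD+IM array, while WD and UB overlapped. The ratio was therefore partly tied to tissue.

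The 13 probe sets showed 2 orders of tissue means. Those of Wt1, Osr2, Nr2f1, Nr2f2, Alx1, Meis1 and Meis2 had their lowest mean in the UB and their highest in the WD+IM. Those of Tcf21, Tbx18 and Meox1 had their lowest mean in the bare WD. In the UB against the WD, 11 of 13 were called (limma, adjusted p under 0.05), where 29.9% of all tested probe sets were. Of these, 9 were lower and 2 higher, beside 18.6% and 11.3% of all. In the WD+IM against the WD, 10 of 13 were called, beside 12.7% of all, with 10 higher and 0 lower, beside 5.62% and 7.06%. In the UB against the WD+IM, 11 of 13 were called, beside 25.5% of all, with 11 lower and 0 higher, beside 14.5% and 11%. The median log2 difference of the 13 was -2.00, 1.48 and -3.21 in these comparisons, beside -0.12, -0.04 and -0.05 over all tested probe sets. The arrays of UB and WD did not overlap for 13 of 13, beside 47.8% of all tested probe sets. The UB was then the lower for 10, beside 29.5%, and the higher for 3, beside 18.3%. Those of WD+IM and WD did not overlap for 11, beside 29.6% of all, with the WD+IM higher in all 11, beside 13.5%, and lower in 0, beside 16%. Those of UB and WD+IM did not overlap for 12, beside 42.6%, with the UB lower in all 12, beside 22.6%, and higher in 0, beside 20%. The 3 comparisons share arrays.

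**Figure D1:**
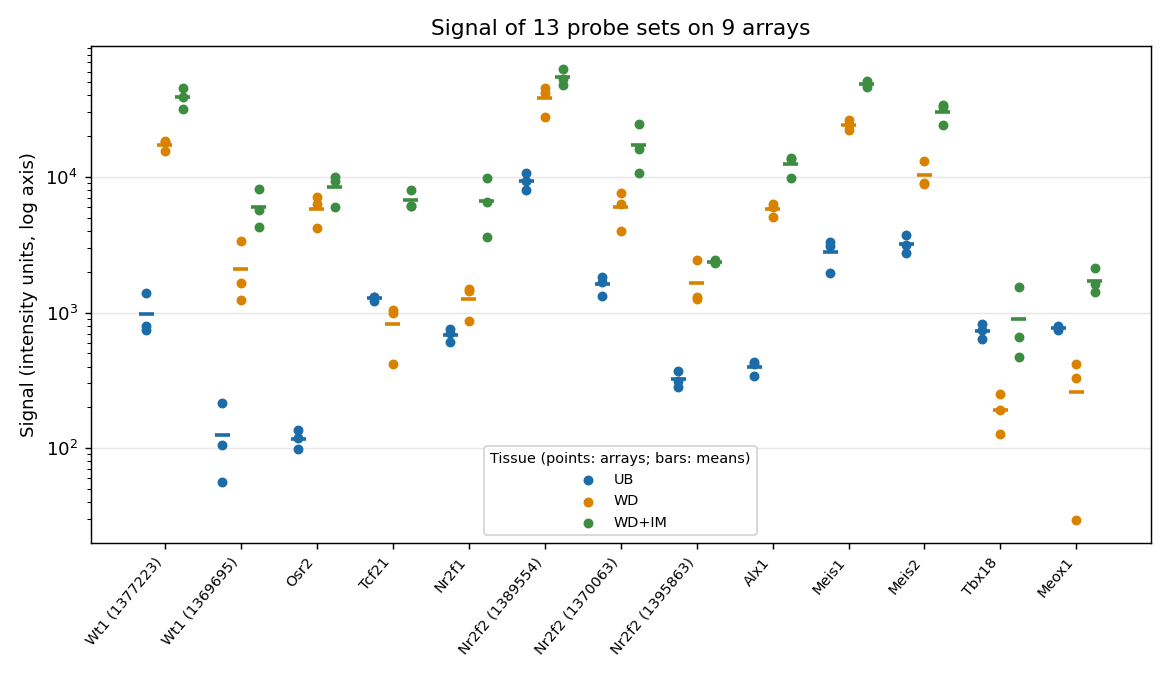
Signal of the 13 probe sets in intensity units on a log axis, with 1 point per array and a bar at the mean of the 3 arrays of a tissue (UB blue, WD orange, WD+IM green). The UB points lie below all WD points for 10 probe sets and above them for Tcf21, Tbx18 and Meox1.

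Upstream sequence was at hand for 6 of the 10 genes in the RefSeq table of build GRCr8. Alx1 and Tbx18 are shown because they stand for the opposed patterns, Alx1 lower and Tbx18 higher in the bud than in the duct. The Alx1 stretch is chr7:40063779-40064028 and the Tbx18 stretch chr8:97559989-97560215, both on the minus strand, written 5′ to 3′ and ending where the annotated gene begins. The start site in the table lies 23 bases inside the gene for Tbx18. Capitals mark GGGCGG, the GC box, in Alx1 and ATTGG, the reverse of the CCAAT box, in Tbx18.

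Alx1: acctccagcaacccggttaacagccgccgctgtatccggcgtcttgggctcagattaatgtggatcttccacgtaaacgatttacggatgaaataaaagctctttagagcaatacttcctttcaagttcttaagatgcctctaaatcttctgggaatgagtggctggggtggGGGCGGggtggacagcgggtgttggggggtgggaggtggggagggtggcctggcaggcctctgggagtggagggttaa

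Tbx18: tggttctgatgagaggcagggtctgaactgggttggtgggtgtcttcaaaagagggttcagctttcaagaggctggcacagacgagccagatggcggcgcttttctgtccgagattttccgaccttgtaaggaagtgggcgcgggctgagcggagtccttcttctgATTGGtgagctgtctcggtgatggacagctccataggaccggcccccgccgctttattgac

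Over the 250 bases before the start, 6 motifs were searched on both strands in all 6 genes, Wt1, Tcf21, Nr2f1, Alx1, Meis1 and Tbx18. TGACAG, a core bound by TALE homeodomain proteins, AGGTCA, a nuclear receptor core, GCGTGGG, a core bound by Wt1 and Egr proteins, and TATAAA, the TATA box, were in 0 of the 6. They occur in 15.8%, 14.1%, 3.68% and 12.9% of the 33469 stretches of this length in the table. GGGCGG was found in Alx1, 78 bases before the start, and in Nr2f1, 250 bases before it, and occurs in 30.5% of all stretches. CCAAT was found only in Tbx18, 84 bases before the start, and occurs in 34.0%. The Wt1 and Meis1 stretches lie inside the annotated gene span, before a later start site. The matches found do not overlap each other. The TATA, CCAAT and GC boxes were added to the search after the first 3 motifs had given no match in these genes.

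Wt1 encodes a zinc finger factor of the intermediate mesoderm and coelomic lining, and kidneys do not form in mice without it. With probe set 1377223_at the signal was 1395, 796 and 740 on the UB arrays. It was 17980, 18378 and 15442 on the WD arrays and 39262, 31570 and 45192 on the WD+IM arrays. The 3 tissues did not overlap. The UB lay 4.13 ± 0.22 below the WD on the log2 scale (log2 difference -4.13, SE, limma adjusted p = 1.25e-07) and the WD+IM 1.15 ± 0.22 above it (adjusted p = 0.0042).

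The other Wt1 probe set, 1369695_at, was weaker. Its signal was 105, 217 and 56.1 in the UB, 1653, 1238 and 3382 in the WD and 8166, 5702 and 4296 in the WD+IM. The order of the tissues was the same, again without overlap. The UB differed from the WD by -3.62 ± 0.41 (limma adjusted p = 6.41e-05), or -2.96 ± 0.74 with the spike ratio class as a term (adjusted p = 0.0525). The WD+IM differed from the WD by 1.59 ± 0.41 (adjusted p = 0.0242). That call was lost without WD replicate 1 (adjusted p = 0.0785), WD replicate 2 (0.107), WD+IM replicate 1 (0.0805) or WD+IM replicate 2 (0.0654). It was also lost without the variance trend (0.054) and with the log2 end ratio of beta-actin as a covariate (1.31 ± 0.62, adjusted p = 0.294). The sign was kept in each case, and the range over the alternatives was 0.00541 to 0.294.

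Osr2, an odd-skipped zinc finger factor of intermediate mesoderm, had the largest log2 difference between UB and WD of the 13 probe sets in the group-only fit. The signal was 118, 135 and 98.1 in the UB, 6287, 4176 and 7095 in the WD and 9411, 10063 and 6052 in the WD+IM. All UB arrays lay far below the rest, while WD+IM replicate 3 fell among the WD arrays. The UB lay below the WD by a log2 difference of -5.15 ± 0.25 (limma adjusted p = 8.19e-08), a ratio of means of 49.9 in favour of the WD. The UB signal was weak, at a mean rank percentile of 23.8, and cannot be told from background, so the ratio depends on that floor. The log2 difference ran from -5.44 to -4.00 over the alternatives, and its call held in each. The WD+IM differed from the WD by 0.54 ± 0.25 (95% interval -0.01 to 1.08, adjusted p = 0.184) and did not pass the test. The WD mean was 5853 ± 1507 and the WD+IM mean 8509 ± 2153 (SD, n = 3 each).

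Alx1 encodes a paired-type homeodomain factor of mesenchyme. The signal was 429, 419 and 339 in the UB, 6341, 5099 and 6010 in the WD and 9839, 13753 and 13586 in the WD+IM. No 2 tissues overlapped. Against the WD, the UB differed by -3.73 ± 0.18 (limma adjusted p = 8.19e-08) and the WD+IM by 1.07 ± 0.18 (adjusted p = 0.00211). Both calls held in every alternative run, from -3.95 to -3.22 and from 0.98 to 1.32.

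Meis1 and Meis2 encode related homeodomain factors of the TALE class, which bind DNA together with Pbx and Hox proteins and are known to respond to retinoic acid. Meis1 gave 3114, 3294 and 1968 in the UB, 24343, 26497 and 22083 in the WD and 51059, 48266 and 46527 in the WD+IM. The WD+IM arrays were close to each other, with a coefficient of variation of 4.70%. The Meis1 signal of the UB lay below that of the WD by a log2 difference of -3.13 ± 0.18 (limma adjusted p = 2.07e-07) and higher in the WD+IM by 1.002 ± 0.18 (adjusted p = 0.00273), a 2.00-fold ratio of means.

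Meis2 gave 3718, 3175 and 2736 in the UB, 13191, 9052 and 8916 in the WD and 32828, 24000 and 33774 in the WD+IM. The tissues did not overlap. The step from UB to WD was shallower than for Meis1, at -1.67 ± 0.19 for UB minus WD (limma adjusted p = 7.01e-05), and the step from WD to WD+IM was 1.54 ± 0.19 (adjusted p = 3.04e-04). Whether the steps of these paralogs differ was not tested.

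Nr2f1 and Nr2f2 encode the COUP-TF orphan nuclear receptors, which are widespread in mesenchyme. For Nr2f1 the signal was 752, 708 and 603 in the UB, 1480, 869 and 1443 in the WD and 6512, 3597 and 9872 in the WD+IM. The UB arrays lay just below the WD arrays, and the WD+IM arrays lay well above both but spread over a wide range. UB and WD differed by -0.80 ± 0.33 (95% interval -1.51 to -0.10, limma adjusted p = 0.0807), which missed the threshold. With the spike ratio class as a term the difference was -1.82 ± 0.49 (adjusted p = 0.069). It was called with array weights (0.0397) and in a fit of these groups alone (0.0437), and the range was 0.0397 to 0.445. The WD+IM was higher than the WD by 2.28 ± 0.33 (adjusted p = 7.44e-04).

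Nr2f2 was read by 3 probe sets, and in all of them the UB lay below the WD. The brightest, 1389554_at, gave 10721, 9419 and 8055 in the UB, 41692, 45283 and 27884 in the WD and 53115, 47480 and 63177 in the WD+IM. Probe set 1370063_at gave 1678, 1327 and 1833, then 7588, 3998 and 6332, then 24734, 16110 and 10735. Probe set 1395863_at gave 310, 373 and 284, then 2429, 1266 and 1299, then 2456, 2323 and 2345. In the last of these, WD replicate 1 reached the level of the WD+IM arrays.

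UB minus WD was -2.00 ± 0.19, -1.82 ± 0.29 and -2.16 ± 0.27 for these 3 Nr2f2 probe sets in the same order (limma adjusted p = 1.33e-05, 7.93e-04 and 1.17e-04). With the spike ratio class as a term, 1370063_at differed by -0.93 ± 0.45 and its call was lost (adjusted p = 0.303). WD+IM minus WD was 1.48 ± 0.29 for 1370063_at (adjusted p = 0.00541), and 0.53 ± 0.19 for 1389554_at and 0.57 ± 0.27 for 1395863_at, which missed the threshold (0.083 and 0.187). The interval for 1389554_at ran from 0.13 to 0.94 and that for 1395863_at from -0.01 to 1.14. With the beta-actin covariate, WD+IM minus WD was 1.32 ± 0.44 for 1370063_at, whose call was lost, 0.95 ± 0.24 for 1389554_at and 1.15 ± 0.34 for 1395863_at (adjusted p = 0.136, 0.0505 and 0.0914). Differences between the probe sets were not tested. Without WD replicate 1, whose beta-actin ratio was the highest, 1395863_at differed by 0.87 ± 0.24 and was called (adjusted p = 0.0479, range 0.0479 to 0.423). No table used here says which part of the transcript each probe set reads, or whether 1 of them also binds Nr2f1 RNA.

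Tcf21, a basic helix-loop-helix factor of kidney stroma and podocytes, had the largest log2 difference between WD+IM and WD of the 13 probe sets in the group-only fit. It gave 1299, 1292 and 1222 in the UB, 1049, 416 and 997 in the WD and 8050, 6115 and 6097 in the WD+IM. Every UB array lay above every WD array, by a small margin for 2 of the WD arrays. The WD+IM was higher than the WD by 3.06 ± 0.29 (limma adjusted p = 7.40e-05) and than the UB, with UB minus WD+IM at -2.36 ± 0.29 (adjusted p = 6.99e-05). UB minus WD was 0.70 ± 0.29 (95% interval 0.07 to 1.34, adjusted p = 0.0864) and was not called. It was called with quantile normalization (1.02 ± 0.31, adjusted p = 0.0322), with median centring (1.16 ± 0.28, 0.00441) and without WD replicate 1 (0.92 ± 0.30, 0.0494), with a range of 0.00441 to 0.416. Without WD replicate 2, the lowest array, it was 0.30 ± 0.18 (adjusted p = 0.254).

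Tbx18, a T-box factor that marks the mesenchyme that later coats the ureter, was lowest in the bare WD. The signal was 742, 829 and 635 in the UB, 191, 127 and 251 in the WD and 1552, 666 and 472 in the WD+IM. The WD signal was weak, at a mean rank percentile of 21.1, and cannot be told from background. The UB and WD+IM arrays overlapped, and both lay above all WD arrays. UB minus WD was 1.75 ± 0.42 (limma adjusted p = 0.0091), 2.79 ± 0.69 with the spike ratio class as a term (adjusted p = 0.0493) and 1.46 ± 0.58 with the beta-actin covariate (adjusted p = 0.104). WD+IM minus WD was 1.86 ± 0.42 (adjusted p = 0.0124), and 1.51 ± 0.63 with the beta-actin covariate (adjusted p = 0.237). UB and WD+IM differed by -0.11 ± 0.42 (95% interval -1.03 to 0.81, adjusted p = 0.887), and the sign turned with quantile normalization (0.15) and with median centring (0.25).

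Meox1, a homeodomain factor of somites that is also found in nephron progenitors, followed the same order. It gave 743, 796 and 768 in the UB, 29.5, 330 and 418 in the WD and 2136, 1622 and 1406 in the WD+IM. Its WD signal was also weak, at a mean rank percentile of 23.1, and cannot be told from background. The UB arrays varied little (3.46%), whereas WD replicate 1, the array with the highest beta-actin ratio, lay far below the other WD arrays and below the pseudocount of 46 used in the fit. UB minus WD was 1.79 ± 0.54 (limma adjusted p = 0.0278) and WD+IM minus WD was 2.88 ± 0.54 (adjusted p = 0.00413). Without WD replicate 1 these were 0.96 ± 0.28 (adjusted p = 0.0296) and 2.06 ± 0.28 (adjusted p = 0.00132). The call of UB against WD was lost without UB replicate 1 (0.0717), UB replicate 2 (0.0644) or UB replicate 3 (0.0659), with the spike ratio class (2.18 ± 1.02, adjusted p = 0.29), with the beta-actin covariate (0.48 ± 0.52, 0.551) and without the variance trend (0.0504), with a range of 0.00199 to 0.551. With the beta-actin covariate the WD+IM differed from the WD by 1.32 ± 0.57 (adjusted p = 0.25). UB minus WD+IM was -1.10 ± 0.54 (adjusted p = 0.17), with no overlap of the arrays. That difference was called in a fit of these groups alone (0.0052) and with the larger pseudocount tried (0.0369), with a range of 0.0052 to 0.64.

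Markers of nephron progenitors, 7 measured of 10 listed, were set beside the 3 genes with their lowest level in the bare duct. Six2, Cited1 and Osr1 were not on the array with a single symbol, and Gdnf was measured but below the filter. The 7 markers summed to 18775 to 24167 in the UB, 16877 to 17151 in the WD and 33059 to 51847 in the WD+IM. Crym alone made up most of each sum, with means of 19887, 9590 and 25896, so the sums mainly follow that gene. Itga8, the next brightest in the WD and WD+IM, had its lowest mean in the UB (314, 3724 and 12744). Of the 6 tested, Crym was higher in the UB against the WD (1.04 ± 0.21) and Itga8, Tmem100 and Rspo3 were lower (limma, adjusted p under 0.05; Crym 0.00373). These 4 were named after their values were seen. Eya1 (-0.57 ± 0.28, limma adjusted p = 0.139) and Sall1 (-0.22 ± 0.48, adjusted p = 0.755) were not called in that comparison. The part of such cells in the UB signal of Tcf21, Tbx18 and Meox1 was not tested.

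**Figure D2:**
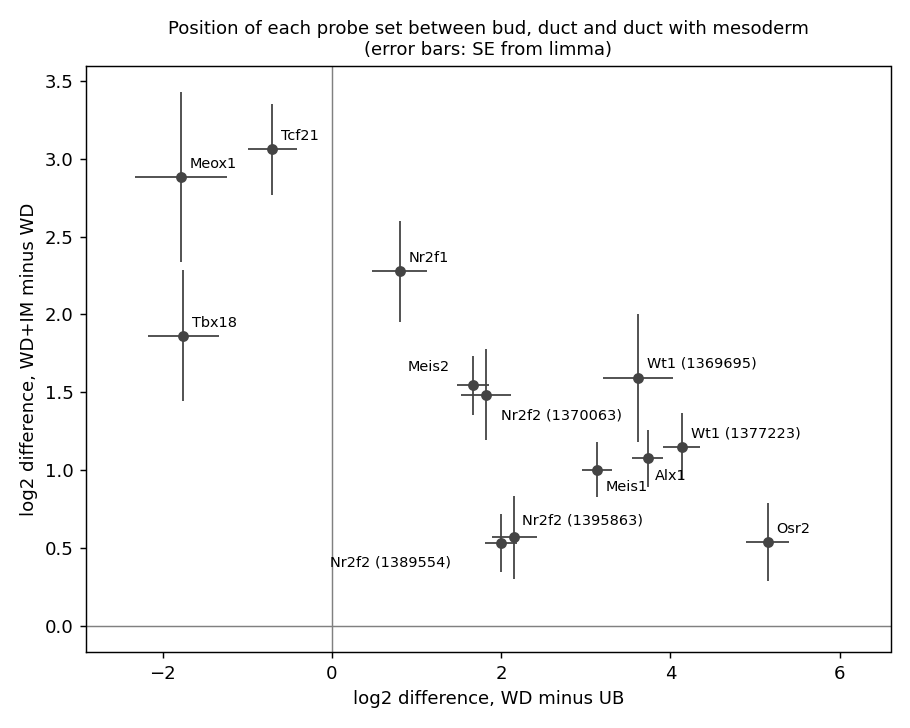
Log2 difference of WD minus UB (horizontal) against that of WD+IM minus WD (vertical) for the 13 probe sets, with error bars of 1 SE from limma. Both axes use the WD arrays, so their errors are linked. All 13 points lie above 0 on the vertical axis, Osr2 is farthest to the right at 5.15, and Tcf21, Tbx18 and Meox1 lie left of 0.

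The order of levels from UB through WD to WD+IM can be read from these steps. For Osr2 the step from UB to WD was 5.15 and that from WD to WD+IM 0.54. Wt1, Alx1 and Meis1 had steps of 3.13 to 4.13 and of 1.002 to 1.59. Meis2 had nearly equal steps, 1.67 and 1.54. For Nr2f1 the order of levels was the same but the second step was the larger, with 0.80 from UB to WD and 2.28 from WD to WD+IM. Neighbouring tissues that did not pass the test were UB and WD for Tcf21 and Nr2f1, WD and WD+IM for Osr2 and for 2 of 3 Nr2f2 probe sets, and UB and WD+IM for Tbx18 and Meox1. The sizes of the steps were not tested against each other. The mesenchyme markers moved the same way as the larger set (limma, medians -3.07 and 0.99). In the UB against the WD 12 of 12 were lower, beside 18.6% of all tested probe sets. In the WD+IM against the WD 7 of 12 were higher, beside 5.62%. The part of mesenchyme in these differences was not tested. Against the WD+IM, the UB was lower by log2 differences of -5.68 ± 0.25 for Osr2, -5.28 ± 0.22 for Wt1 (1377223_at), -4.81 ± 0.18 for Alx1 and -4.13 ± 0.18 for Meis1 (adjusted p = 1.17e-08, 8.27e-09, 5.14e-09 and 9.74e-09). It was lower by -3.21 ± 0.19 for Meis2 and -3.08 ± 0.33 for Nr2f1 (1.45e-07 and 1.84e-05). The 3 Nr2f2 probe sets lay between -3.31 and -2.53 in that comparison.

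Family members and DNA-binding partners of these factors were read next. Of 16 listed genes, 7 were on the array with a single symbol and 5 were tested. Pbx3, a partner of Meis proteins, followed the order of Meis1 and Meis2. Its mean was 4393 ± 266 in the UB, 10242 ± 870 in the WD and 27577 ± 4781 in the WD+IM (SD, n = 3 each). UB minus WD was -1.21 ± 0.15 (limma adjusted p = 9.94e-05) and WD+IM minus WD was 1.41 ± 0.15 (adjusted p = 1.18e-04). Pbx2 differed by -0.50 ± 0.18 between UB and WD (adjusted p = 0.0526) and by -0.02 ± 0.18 between WD+IM and WD (0.943). Meis3 was lower in the UB against the WD (-1.29 ± 0.24, adjusted p = 0.00208), and differed by 0.30 ± 0.24 between WD+IM and WD (0.446).

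Nr2f6, the third COUP-TF gene, ran against Nr2f1 and Nr2f2. Its mean signal was 15909 in the UB, 10491 in the WD and 6059 in the WD+IM. UB minus WD was 0.60 ± 0.16 (limma adjusted p = 0.0134) and WD+IM minus WD was -0.81 ± 0.16 (adjusted p = 0.00476). Pbx4 passed no test, and Meox2 and Tcf23 were below the filter. Over the 5 genes tested, 1 was higher and 2 were lower in the UB against the WD (median -0.76), beside 11.3% and 18.6% of all. In the WD+IM against the WD, 1 was higher and 1 lower (median -0.02), beside 5.62% and 7.06%.

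Of 34 other mesodermal factors, 28 were on the array and 22 tested. In the UB against the WD, 0 were higher and 10 lower (median -0.96), beside 11.3% and 18.6% of all tested probe sets. In the WD+IM against the WD, 13 were higher and 1 lower (median 0.88), beside 5.62% and 7.06%. Bnc2 and Bnc1, basonuclin zinc finger proteins of coelomic epithelium, resembled Osr2, with UB minus WD of -5.42 ± 0.20 and -5.95 ± 0.34 (limma adjusted p = 1.30e-08 and 2.20e-07). Their WD+IM minus WD was 0.30 ± 0.20 and 0.35 ± 0.34 (adjusted p = 0.354 and 0.532).

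Twist1, Snai1, Prrx2 and Zeb1, factors of mesenchymal cells, were higher in the WD+IM than in the WD, by 1.41 ± 0.21, 1.47 ± 0.23, 1.94 ± 0.27 and 1.06 ± 0.17 (limma adjusted p = 0.00101, 0.00124, 7.07e-04 and 0.00158). In the UB against the WD they were lower, by log2 differences of -2.23, -1.27, -2.22 and -2.21. Zeb2 resembled Tcf21. Its mean was 526 in the UB, 604 in the WD and 3616 in the WD+IM, with WD+IM minus WD of 2.73 ± 0.44 (adjusted p = 0.00157) and UB minus WD of 0.05 ± 0.44 (adjusted p = 0.94). The member of this list that was lower with mesoderm was Six4 (-0.67 ± 0.15, adjusted p = 0.0143).

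Transcription factors of the duct epithelium gave the opposite picture in the WD+IM. Of 13 tested, 10 were lower and 1 higher in the WD+IM against the WD (median -1.17), beside 7.06% and 5.62% of all tested probe sets. In the UB against the WD, 6 were higher and 4 lower (median 0.29), beside 11.3% and 18.6%. Pax8, a paired-box factor of the nephric lineage, had WD+IM minus WD of -1.75 ± 0.16 (limma adjusted p = 7.17e-05), and Pax2, its relative, -1.82 ± 0.21 (adjusted p = 2.08e-04). Gata2, a zinc finger factor, was 1 of the 4 called lower in the bud, with UB minus WD of -2.08 ± 0.20 (adjusted p = 1.55e-05). The others were Elf5 (-2.12 ± 0.26, adjusted p = 1.29e-04), Elf3 (-1.08 ± 0.29, 0.0147) and Pax8 (adjusted p = 9.34e-04). Of the 6 called higher there, Etv5 and Etv4 differed most, by 4.01 ± 0.27 and 3.81 ± 0.27 (adjusted p = 8.18e-07 and 1.40e-06).

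**Figure D3:**
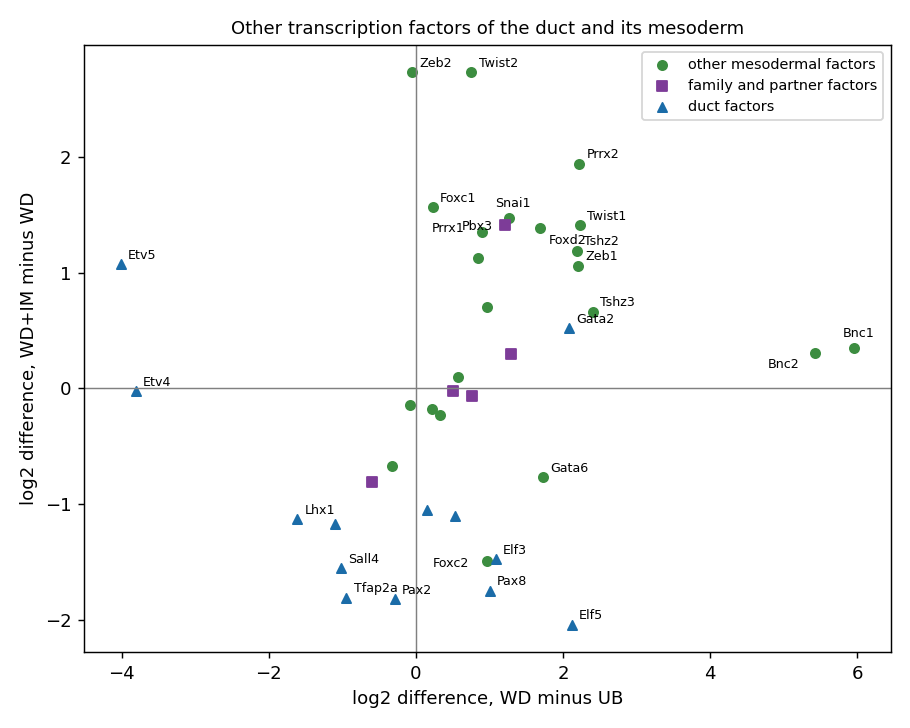
Log2 difference of WD minus UB (horizontal) against WD+IM minus WD (vertical) for the tested genes of the lists of other mesodermal factors (green circles), family and partner factors (purple squares) and duct factors (blue triangles), each by its brightest probe set. Both axes use the WD arrays. Bnc1 and Bnc2 lie far right near 0 on the vertical axis, Zeb2 and Twist2 lie highest at 2.73, and most duct factors lie below 0.

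Retinoic acid genes were read because Meis and COUP-TF genes are known to respond to that signal. Of 14 tested, 1 was higher and 7 were lower in the UB against the WD (median -0.69), beside 11.3% and 18.6% of all tested probe sets. In the WD+IM against the WD, 3 were higher and 2 lower (median 0.06), beside 5.62% and 7.06%. Aldh1a2, a retinoic acid synthase of mesoderm, had means of 4898 in the UB, 62561 in the WD and 81841 in the WD+IM, with UB minus WD of -3.71 ± 0.20 (limma adjusted p = 1.54e-07). Aldh1a1 and Aldh1a3, synthases of epithelium, had WD+IM minus WD of -1.89 ± 0.16 and -2.01 ± 0.18 (adjusted p = 5.35e-05 and 5.60e-05). Crabp1, a retinoic acid binding protein, was lower in the UB (-2.43 ± 0.21) and higher in the WD+IM (1.67 ± 0.21), with adjusted p = 9.02e-06 and 3.71e-04. The receptor Rarb was higher in the WD+IM (0.84 ± 0.19, adjusted p = 0.0108), and UB minus WD was 0.12 ± 0.19 (0.664). Of the other receptors, Rara and Rxrb were lower in the UB against the WD (-1.09 ± 0.22 and -0.71 ± 0.16, adjusted p = 0.00357 and 0.00577). Rarg and Rxrg were not called there (0.0774 and 0.763). The 1 gene higher in the UB was Rdh10, a synthesis enzyme (1.04 ± 0.22, adjusted p = 0.00503).

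The genes with the most similar course over the 9 arrays were found by Pearson's r of log2 signals among 10713 genes. These values describe 9 arrays that fall into 3 tissues, and each r rests mainly on the tissue means. For Osr2 they were Dlk1, Col3a1 and Igfbp3 (r of 0.997, 0.997 and 0.996). For Alx1 they were Calhm2, Tgfbi and Sfrp1 (0.998, 0.997 and 0.997), and for Meis1 Pcolce, Postn and Tgfbi (0.998, 0.997 and 0.996). Wt1 ran with S100a10, Rassf9 and Flrt3 (0.997, 0.996 and 0.996), and Meis2 with Cdh11, Lgals1 and Cald1 (0.993, 0.993 and 0.992). Collagen III, periostin, the procollagen enhancer Pcolce and cadherin 11 are products of mesenchymal cells. Col3a1, Postn and Cdh11 were also among the mesenchyme markers summed above, and the cell source of the other genes was not examined.

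Tcf21 had its closest course in the chemokine Cxcl12 (r = 0.979), whose means were 4015 in the UB, 1736 in the WD and 26425 in the WD+IM, then Il6st and Pigy (0.977 and 0.975). Tbx18 ran with Ube2g1, the Wnt receptor Fzd8 and the fibrillin Fbn2 (0.975, 0.967 and 0.965), and Meox1 with Elp5, Czib and Mdga2 (0.975, 0.975 and 0.960). Nr2f1 ran with Asap1, Spin4 and Plgrkt (0.988, 0.987 and 0.983) and Nr2f2, by its brightest probe set, with Eci2, Sv2a and Wwc3 (0.997, 0.993 and 0.992). Fbn2 had means of 8686, 3506 and 8581 in the UB, WD and WD+IM. Like Tbx18 it was lowest in the WD, and its UB and WD+IM means were nearly level.

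The spike ratio divides the arrays as tissue does, apart from WD+IM replicate 3, so the comparisons were also made inside each class. Among the arrays of low spike ratio, WD+IM replicates 1 and 2 against the WD, 10 of 13 probe sets were called, all higher, beside 9.53% of all tested probe sets, and no member's call changed. Tcf21 differed there by 3.13 ± 0.34, Meis2 by 1.45 ± 0.22 and Wt1 (1377223_at) by 1.03 ± 0.24. Among the arrays of high ratio, the UB against WD+IM replicate 3 alone, 11 of 13 were called lower, beside 11.8% of all called in either direction, with Wt1 (1377223_at) at -5.52 ± 0.31, Osr2 at -5.23 ± 0.35 and Alx1 at -4.96 ± 0.25. There the spread of the lone array is taken from the other groups. UB and WD share no class. With the class as a term, set through WD+IM replicate 3, 8 of 13 probe sets were called in the UB against the WD, 7 lower and 1 higher, beside 3.92% of all. With the beta-actin covariate, 9 were called in that comparison, beside 16.1% of all, and 6 in the WD+IM against the WD, beside 4.06%, with no sign changed in either.

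**Figure D4:**
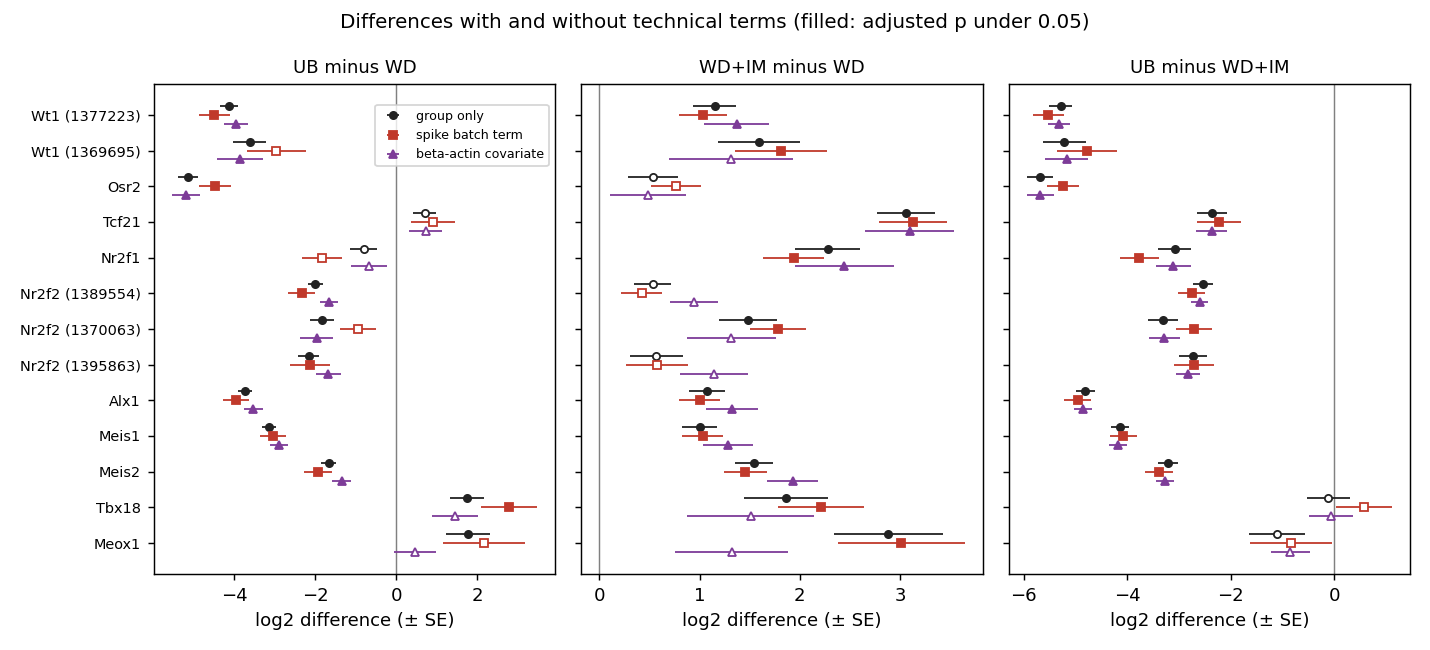
Log2 differences with 1 SE for the 13 probe sets in the 3 comparisons, from limma with group alone (black circles), with the spike ratio class as a term (red squares) and with the log2 end ratio of beta-actin added (purple triangles). Filled symbols have an adjusted p under 0.05. Apart from Tbx18 in the UB against the WD+IM, which was not called, each probe set keeps its sign in all fits shown, and with the beta-actin covariate Meox1 goes from 1.79 to 0.48 in the UB against the WD and from 2.88 to 1.32 in the WD+IM against the WD.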

How the data were processed

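Each of the 9 pools was run on a single-colour Affymetrix array, per the labels' protocols. The deposited table gives an intensity per probe set, made with GCOS per the submitters' processing notes; no source used here gives its version, algorithm or a genome build. Every array was scaled to a trimmed mean of 2500.0 intensity units (2% left out at each end), as the values show. No detection calls were used, so weak signals cannot be told from background. P-values measure the spread between pools that the labels call biological replicates, and 3 arrays a tissue limit precision.

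The tested value was log2(intensity + 46), where 46 is the 10th percentile of all signals, which shrinks the differences of dim genes. A probe set entered if it passed the 40th percentile of the array on 3 or more of 9. limma 3.58.1 in R 4.3.3 fitted all 9 arrays with group as the only term, a variance trend, and 6 residual and 6.09 prior degrees of freedom. P-values were adjusted by Benjamini-Hochberg over 20334 probe sets and called under 0.05. All adjusted p-values come from this fit or its alternatives. Log2 differences take the first group minus the second, ± SE.

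Genes were named through the platform table, with symbols updated by Entrez ID. A listed gene was read by its brightest probe set. Named were all members, up to 4 genes per list by smallest p, and 3 genes of most similar course per member; other names were chosen after values were seen. Members, lists and most alternatives were chosen with earlier results of these data known. In a simulation of UB against WD (20334 probe sets), 100 changes of log2 1 and 100 of log2 2 were planted. The fit called 36% and 86% of them. Far fewer probe sets were changed there than the 6073 called in the data, so these shares do not give the power of the main fit. Same-numbered arrays of different tissues had deviations correlated from -0.35 to 0.28 (9 pairs), and arrays of different number from -0.26 to 0.30 (18 pairs). No pairing by number was seen, but 3 arrays a tissue cannot exclude it.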

Additional observations from a re-analysis of the deposited data

How the results depend on the processing

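Over the 23 alternatives run, 733 of 764 member differences kept their sign and side of the threshold, 18 lost a call, 8 gained one and 5 turned sign. All 5 were of Tbx18 in the UB against the WD+IM, which was not called in any fit and went from -0.11 to 0.15 with quantile normalization, 0.25 with median centring, 0.58 with the spike ratio term and within its high class, and 0.36 without WD+IM replicate 1 (range without 1 array at a time, -0.46 to 0.36). The count of called member probe sets stayed within 1.5 times its value except with the beta-actin covariate, where 6 instead of 10 were called in the WD+IM against the WD; that fit made 826 calls over all probe sets, instead of 2577. Without 1 array at a time, 10 to 12 members were called in the UB against the WD, 9 to 10 in the WD+IM against the WD and 11 in each case in the UB against the WD+IM. With the replicate number as a block (replicate block), which the labels do not tie to litters or days, 11, 10 and 11 were called, as without it. The shares over all tested probe sets were then 26.3%, 10.8% and 22.7%. Scaling moved the median of all UB against WD differences from -0.12 to 0.04 with quantile normalization and 0.34 with median centring, and the calls over all probe sets from 2297 higher and 3776 lower to 2527 and 2433, and to 5836 and 1530. In these scalings 3 members were called higher and 9 lower, the added call being Tcf21. For UB against WD+IM the split went from 2228 higher and 2949 lower to 2305 and 2364, and to 4610 and 1793. For WD+IM against WD it went from 1142 higher and 1435 lower to 1413 and 1433, and to 1242 and 923. Over all probe sets, the fit with the spike ratio term made 798 calls instead of 6073 in the UB against the WD and 2414 instead of 5177 in the UB against the WD+IM (2397 within the class of high ratio), and the fit with the beta-actin covariate made 3276 in the former. Without UB replicate 1 there were 3742 calls in the UB against the WD. The 60th percentile filter left 12 members tested, without Tbx18. The causes were not tested.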
